A study of Mus musculus with 6 samples.

Results

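Voltage-gated sodium, calcium and potassium channels were examined in RNA from the olfactory epithelium of newborn mice, in pups called mutant and wild-type pups. The genes were chosen by symbol, as those that begin with Cacn or Kcn, or that read Scn followed by digits and then a or b. Genes of 119 such symbols had at least 1 probe set that carried no other gene's name, out of 18193 genes measured in that way, and each gene was read from its brightest probe set over the 6 arrays. The symbols reach beyond the voltage-gated channels that the group is named for: they take in the auxiliary subunits, the calcium- and sodium-activated potassium channels, the inward rectifiers and the two-pore leak channels. They also take in 3 non-coding transcripts named after a channel gene, Kcnq1ot1, Kcnmb4os1 and Kcnmb4os2.

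The study compared 3 mutant pups with 3 wild-type pups, all aged 1 day and all of mixed C57Black6/J and 129SvJ background, with 1 array for each pup. The series title names KLF7, a Krüppel-like factor with zinc fingers that acts in neurons, and its targets, while the sample labels say only mutant and give no allele or zygosity. The olfactory epithelium was taken as whole tissue, so a level here is an average over neurons, progenitors, supporting cells and whatever other tissue came with them.

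Voltage-gated channels open when the membrane depolarises and so turn a receptor current into spikes. Sodium channels carry the upstroke of the spike, potassium channels end it and set the firing pattern, and calcium channels couple it to transmitter release and to gene regulation. In olfactory sensory neurons, odour binding opens a cyclic-nucleotide-gated cation channel in the cilia, the soma and axon then fire, and calcium entry at the axon terminal in the olfactory bulb releases glutamate. Each pore-forming subunit works with auxiliary subunits that set its traffic and gating.

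The library labels were checked on Klf7. One of its 4 probe sets had log2 levels of 6.85, 5.70 and 5.26 on the mutant arrays, against 9.36, 8.58 and 9.04 on the wild-type arrays. It fell by 3.06 (SE 0.487; limma, adjusted p = 0.00361 over the 4 Klf7 probe sets), the largest change of the 4 probe sets. The others, the brightest included, fell by 2.15 to 2.28, and limma called all 4 when adjusted over these 4 alone. With adjustment over all genes tested, as used for the channel genes, Klf7 itself was not called in any setting. Its lowest adjusted p over the alternative settings was 0.999 (limma). The deposited array totals ran from 10064207 to 14439788 intensity units. Markers of mature olfactory neurons were bright on every array, while the markers of skeletal muscle had array medians of 3.79 to 4.59 on the mutant arrays and 3.65 to 5.60 on the wild-type arrays, where the floor is 3.65. The highest of these was wild-type array 3, above the level of 5.19 under which genes were left out as dim. Cartilage and bone markers had medians of 6.68 to 9.08 on the mutant arrays and 5.17 to 9.71 on the wild-type arrays, and so varied between arrays of one genotype. Both arrays numbered 3 stood apart from the other 4, as described for the channel genes further on.

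No channel gene passed the test between mutant and wild type. Of the 119 genes, 81 were bright enough to be tested, and limma called 0 of them after Benjamini-Hochberg adjustment over all genes tested, where 0 of 12703 genes were called, or 0% (smallest adjusted p = 1.00). In the 81 genes, 42 were lower in the mutant and 39 higher, with a median log2 difference, mutant minus wild type, of -0.01 and a range of -1.71 to 1.29. Over all genes tested, 52.6% were lower and the median was -0.02. As a whole, the channel genes lay evenly around no difference, as the other genes did.

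A few channel genes had lower levels on every mutant array than on any wild-type array. At an unadjusted p under 0.05 there were 3 channel genes, Kcnc4, Cacna1b and Scn4b, or 3.70%, where all genes gave 0.598%, of which 0.441% were lower and 0.157% higher. All 3 were lower in the mutant. Where no gene differed, a calibrated test would put a fraction of 0.05 under this threshold. The shares of 3.70% and 0.598% both lie below that, so setting one against the other does not by itself show an excess of changed genes. Groups that did not overlap were found for 5 channel genes, or 6.17%: these 3, Kcna5 and Kcna1, all lower in the mutant, against 1.95% of all genes. Under scaling to equal array medians, not quantiles, this count was 2, or 2.50%, against 1.40% of all genes in either direction, and with no normalization it was 2, or 2.53%, against 2.60%. None was higher on every mutant array, against 0.905% of all genes. With 3 arrays in each group, an exact two-sided permutation test of 1 gene cannot give a p below 0.1.

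**Figure D1:**
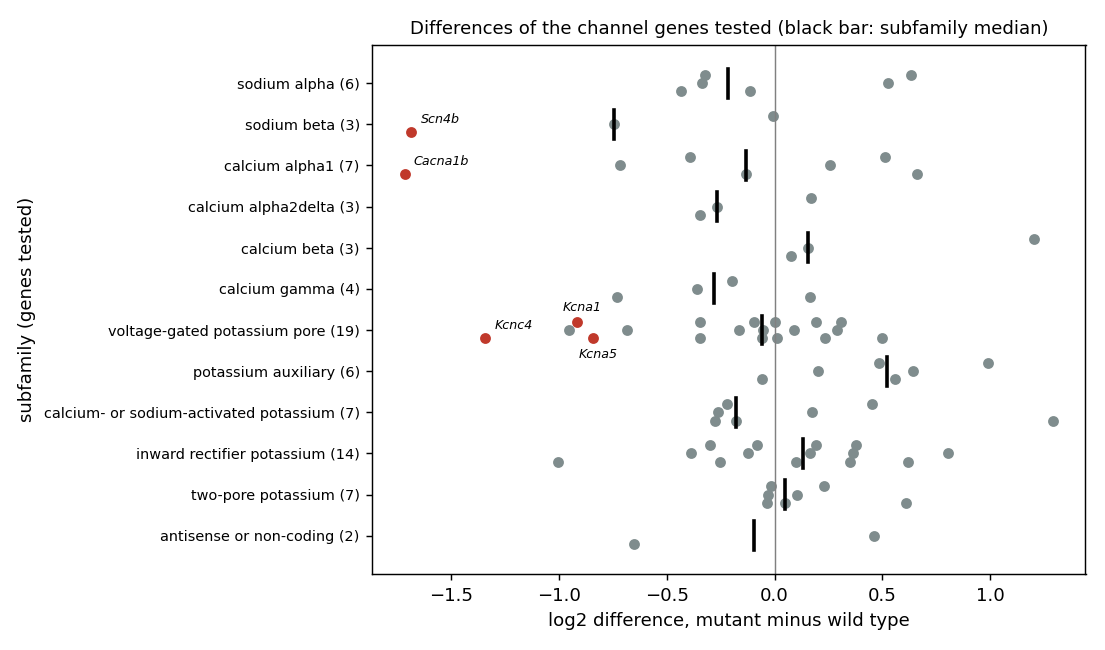
Log2 difference, mutant minus wild type (x axis), of each of the 81 channel genes tested, by subfamily (rows, with the number of genes tested). Black bars are subfamily medians, and the 5 genes in red, all on the lower side, are those whose groups did not overlap.

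The 300 bases at the start of each of the 3 genes at an unadjusted p under 0.05 are shown because the series asks for targets of a Krüppel-like factor, a family whose zinc fingers bind CACCC and GC-rich boxes. Capitals mark CACCC or GGGCGG, read on either strand, so that GGGTG and CCGCCC are the same words on the other strand. The sequences are RefSeq promoter windows of GRCm38.p6 that span the start of the gene, written 5′ to 3′ on the gene's strand. The windows are chr2:24763103-24763402 on the minus strand for Cacna1b, chr3:107458849-107459148 on the minus strand for Kcnc4 and chr9:45138374-45138673 on the plus strand for Scn4b.
Cacna1b: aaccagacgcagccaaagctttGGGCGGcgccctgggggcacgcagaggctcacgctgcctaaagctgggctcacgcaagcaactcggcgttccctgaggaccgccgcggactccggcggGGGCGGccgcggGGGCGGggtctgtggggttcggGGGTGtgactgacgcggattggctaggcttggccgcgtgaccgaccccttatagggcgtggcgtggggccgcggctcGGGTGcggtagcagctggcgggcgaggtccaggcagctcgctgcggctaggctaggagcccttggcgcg
Kcnc4: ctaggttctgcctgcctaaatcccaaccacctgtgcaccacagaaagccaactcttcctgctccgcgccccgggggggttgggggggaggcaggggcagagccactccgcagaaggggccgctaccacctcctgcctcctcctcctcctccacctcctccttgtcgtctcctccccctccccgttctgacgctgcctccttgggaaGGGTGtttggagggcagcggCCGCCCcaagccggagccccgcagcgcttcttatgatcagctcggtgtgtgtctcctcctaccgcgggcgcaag
Scn4b: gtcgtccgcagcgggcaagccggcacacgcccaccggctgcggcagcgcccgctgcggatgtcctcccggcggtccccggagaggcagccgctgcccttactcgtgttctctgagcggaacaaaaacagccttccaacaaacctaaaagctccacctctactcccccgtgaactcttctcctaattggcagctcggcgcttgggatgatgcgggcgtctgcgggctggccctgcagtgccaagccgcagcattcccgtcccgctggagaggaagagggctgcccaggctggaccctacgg

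The Cacna1b window held 2 matches to CACCC and 3 to GGGCGG, with no overlap between them. The Kcnc4 window held 1 of each, and the Scn4b window held neither word. The Kcna5 window, not printed, held 2 matches to CACCC and 0 to GGGCGG. Both words are common. CACCC occurred in 57.5% of all 32851 RefSeq windows and in 71.0% of the 93 windows of the channel genes tested, and GGGCGG in 35.7% of all windows and in 40.9% of those of the channel genes tested. These matches describe letters in a window and measure no binding.

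Kcnc4 encodes a fast-inactivating, high-threshold potassium channel that shortens spikes in axons and terminals. Its log2 levels were 8.93, 8.57 and 7.57 on mutant arrays 1, 2 and 3, against 9.95, 9.81 and 9.34 on wild-type arrays 1, 2 and 3. The highest mutant array lay below the lowest wild-type array. The means were 8.36 ± 0.70 in the mutant and 9.70 ± 0.32 in wild type (SD, n = 3 each). The difference was -1.34 (SE 0.400, 95% interval -2.22 to -0.46; limma, unadjusted p = 0.00646, adjusted p = 1.00), or 2.53-fold lower in the mutant. A second, dimmer Kcnc4 probe set differed by -0.63, and its groups overlapped.

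Cacna1b encodes the pore of the N-type calcium channel, which triggers transmitter release at many nerve terminals. Its log2 levels were 7.12, 5.58 and 5.94 on mutant arrays 1, 2 and 3, against 8.27, 7.44 and 8.05 on wild-type arrays 1, 2 and 3. The mutant arrays lay below every wild-type array, with mutant array 1 the closest. The means were 6.21 ± 0.81 in the mutant and 7.92 ± 0.43 in wild type (SD, n = 3 each), a difference of -1.71 (SE 0.573, 95% interval -2.97 to -0.45; limma, unadjusted p = 0.0123, adjusted p = 1.00). Its second bright probe set differed by -1.20, but mutant array 1 at 7.19 lay above wild-type array 2 at 7.16. Without wild-type array 1, the difference was -1.54 and its unadjusted p was 0.0608 (limma).

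Scn4b encodes an auxiliary sodium channel subunit, known from other neurons for its part in the resurgent current that supports rapid firing. Its log2 levels were 8.29, 7.78 and 5.60 on mutant arrays 1, 2 and 3, against 9.85, 8.55 and 8.32 on wild-type arrays 1, 2 and 3. Mutant array 3 was far below the other mutant arrays, and mutant array 1 lay just under wild-type array 3. The difference was -1.68 (SE 0.686, 95% interval -3.19 to -0.17; limma, unadjusted p = 0.0321, adjusted p = 1.00), and -0.87 without mutant array 3, where its unadjusted p no longer lay under 0.05. Scn4b was read from 1 probe set.

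Kcna5 and Kcna1 encode Shaker-type potassium channel pores. Kcna5 is known from heart and vascular muscle, and Kcna1 from axons, where it holds down repetitive firing. Kcna5 levels were 7.38, 7.26 and 6.77 on the mutant arrays, against 8.31, 7.56 and 8.06 on the wild-type arrays, a difference of -0.84 (SE 0.458; limma, unadjusted p = 0.0937). The Kcna1 levels were 5.36, 3.65 and 5.37 on the mutant arrays, against 5.70, 5.39 and 6.03 on the wild-type arrays, and the difference was -0.91 (SE 0.799; limma, unadjusted p = 0.277). Mutant array 2 was at the floor for Kcna1, so that the difference of this probe set is understated. Another Kcna1 probe set, with a mean just under the dim level, went the other way without overlap, at 5.46, 5.84 and 6.17 on the mutant arrays, against 4.42, 4.64 and 3.98 on the wild-type arrays, a difference of 1.48. Kcna1 therefore has no settled direction here. In both genes, on the probe sets used, the highest mutant array lay close under the lowest wild-type array.

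**Figure D2:**
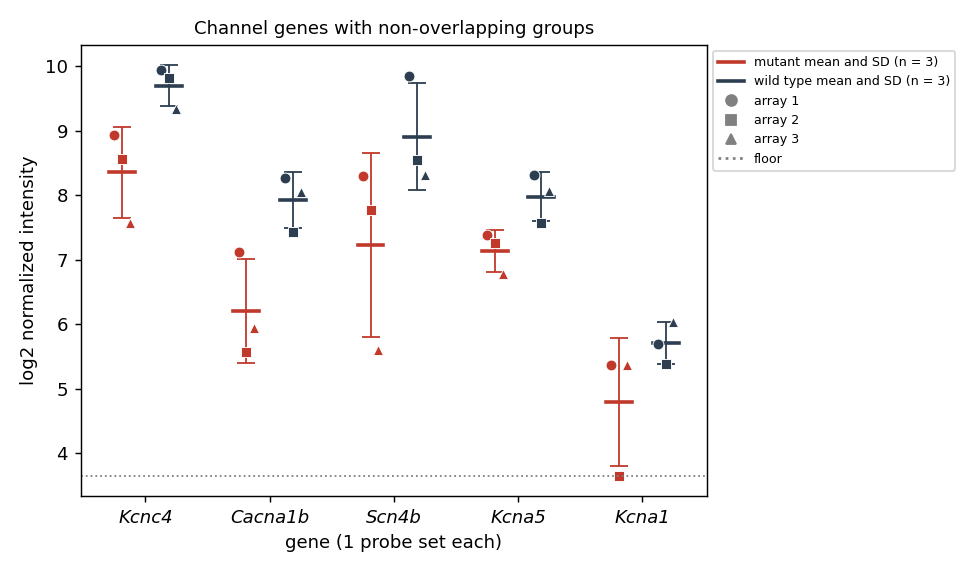
Normalized log2 level (y axis) of the 5 channel genes whose groups did not overlap, by array, with the mutant arrays left of the wild-type arrays. Bars are group means with SD (n = 3), marker shapes stand for arrays 1, 2 and 3, and the dotted line is the floor at 3.65. In each gene every mutant point lies below every wild-type point, with the groups nearest to each other in Scn4b and Kcna1, and another Kcna1 probe set, not shown, differed by 1.48 the other way.

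These lower levels stood beside lower levels of neuronal markers. Of 7 mature olfactory neuron markers tested, 6 were lower in the mutant, with a median difference of -0.86 and 5 at an unadjusted p under 0.05, where 0.598% of all genes were. The markers were listed with earlier results of these data known, so this count does not by itself show an excess. The medians of these markers were 8.98 to 9.44 on the mutant arrays and 9.72 to 10.15 on the wild-type arrays, and none of the markers was at the floor on every array. Gnal, the olfactory G protein, differed by -0.92, Stoml3 of the cilia by -0.86, the vesicular glutamate transporter Slc17a6 by -1.05 and the olfactory marker protein Omp by -0.36. Adcy3, the adenylyl cyclase of odour signalling, was the marker on the higher side, at 0.36. Of 6 immature neuron markers, 6 were lower, with a median of -0.78 and array medians of 8.99 to 9.91 in the mutant and 9.74 to 9.89 in wild type. In whole tissue, fewer cells of a type and less RNA per cell cannot be told apart, and the part of these markers in the channel levels was not tested.

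The groups overlapped in every sodium channel gene tested other than Scn4b. Scn9a encodes the main sodium channel pore of olfactory sensory neurons, without which mice and humans cannot smell. Its log2 levels were 10.05, 10.67 and 10.78 on the mutant arrays, against 11.07, 10.05 and 11.39 on the wild-type arrays. Wild-type array 2 lay at the level of the lowest mutant array, and the difference was -0.34 (SE 0.342, 95% interval -1.09 to 0.42). Without wild-type array 2 it was -0.73 (limma, unadjusted p = 0.0229, adjusted p = 0.999), the lowest value over the alternative settings. The highest of these for Scn9a was -0.06. Its 4 bright probe sets differed by -0.52, -0.34, -0.28 and 0.39, so they did not share a sign.

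Scn3a, a pore of embryonic and newborn neurons, had log2 levels of 10.42, 10.79 and 10.37 on the mutant arrays, against 10.57, 10.44 and 10.90 on the wild-type arrays. The groups were interleaved, with a difference of -0.11 (SE 0.232, 95% interval -0.62 to 0.40). Scn8a, the pore that gathers at nodes and the axon initial segment, differed by -0.43 (SE 0.425) and its second bright probe set by -0.92. Scn2a, a pore of unmyelinated and young axons, differed by -0.32 (SE 0.856). Scn7a, which encodes a sodium-sensing relative of the voltage-gated pores, and Scn1a, a pore of fast-spiking neurons, were higher in the mutant by 0.63 (SE 0.748) and 0.52 (SE 0.841).

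Of the 6 sodium pore genes tested, 4 were lower and 2 higher, with a median of -0.22, which was -0.43 without mutant array 2 and 0.12 without mutant array 3. All 3 sodium beta genes tested were lower, with a median of -0.74: beside Scn4b these were Scn3b at -0.74 (SE 0.785) and Scn2b at -0.01 (SE 0.635). The second probe set of Scn2b differed by -1.12. With array medians set equal or no normalization, Scn2b was on the higher side and 2 of the 3 were lower. Without wild-type array 3 the median of the beta genes was -0.02, and with array weights it was -0.18. The sodium channel genes together had 7 of 9 lower and a median of -0.32, where 52.6% of all genes were lower. Leaving out mutant array 1 put 3 of 6 pore genes and 2 of 3 beta genes on the lower side. Leaving out both arrays numbered 3 gave the same counts.

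Calcium channel pores had 4 of 7 genes lower and a median of -0.13, which was 0.085 without mutant array 2. Cacna1d, an L-type pore that opens at low voltage, had levels of 10.17, 10.08 and 9.96 on the mutant arrays, against 10.21, 9.72 and 10.67 on the wild-type arrays. The wild-type arrays spanned the mutant ones, and the difference was -0.13 (SE 0.282). Cacna1c, the L-type pore of heart, smooth muscle and brain, differed by 0.51 (SE 0.634), and Cacna1a, the P/Q-type pore of many terminals, by 0.26 (SE 0.956). The T-type pores Cacna1h and Cacna1g differed by -0.39 (SE 0.711) and -0.71 (SE 0.773), and the R-type pore Cacna1e by 0.66 (SE 0.756).

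The auxiliary calcium subunits differed in both directions. In the alpha2delta genes, which raise the number of channels at the membrane, 2 of 3 were lower, but 1 of 3 without wild-type array 3, and Cacna2d1, a target of gabapentin, differed by -0.34 (SE 0.305). All 3 beta genes tested, whose products carry the pore to the membrane, were higher, with a median of 0.15. Leaving out any 1 array put 1 of the 3 on the lower side, with medians of 0.46 to 1.18. Cacnb2 had the largest difference of these at 1.20 (SE 0.882), with levels of 6.71, 6.08 and 5.20 on the mutant arrays, against 6.33, 4.39 and 3.65 on the wild-type arrays. Wild-type array 3 was at the floor there, and wild-type array 1 lay above 2 of the mutant arrays. In the gamma genes, several of which serve AMPA-type glutamate receptors, 3 of 4 were lower with a median of -0.28, but 1 of 4 without mutant array 1 (median 0.25) or without wild-type array 3 (0.52). In this group Cacng8 differed by -0.73 (SE 0.733).

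The voltage-gated potassium pores had 11 of 19 genes lower and a median of -0.06, which was 0.047 with no normalization. The other Shaker-type genes tested had overlapping groups and differed in both directions: Kcna6 by -0.95 (SE 0.703), Kcna2 by -0.34 (SE 0.518) and Kcna4 by 0.50 (SE 0.653). The second bright probe set of Kcna2 differed by -0.80. Kcnc1, a fast-spiking pore and a relative of Kcnc4, differed by 0.23 (SE 0.783).

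Potassium auxiliary genes had 1 of 6 lower and a median of 0.52, but without wild-type array 3 the median was -0.14, with 3 of 6 lower. Kcnip1, a calcium-binding partner of A-type pores, differed by 0.99 (SE 0.781), Kcne3, an epithelial partner of Kcnq1, by 0.56 (SE 0.447) and Kcne4 by 0.48 (SE 0.929). Kcnab2, the cytoplasmic subunit of Shaker-type pores, had levels of 9.20, 8.90 and 9.14 on the mutant arrays, against 9.84, 9.85 and 7.73 on the wild-type arrays. Wild-type arrays 1 and 2 lay above every mutant array and wild-type array 3 below them all, for a difference of -0.06 (SE 0.518). Without wild-type array 3 the difference was -0.77 (limma, unadjusted p = 0.0272, adjusted p = 1.00). Markers of sustentacular and gland cells were also lowest on wild-type array 3, with medians of 10.66 to 10.75 on the mutant arrays, 10.51 and 10.73 on wild-type arrays 1 and 2 and 9.58 on wild-type array 3. All 4 of these markers tested were higher in the mutant, by a median of 0.44, and their part in the levels of Kcne3, Kcnab2 and other channel genes that were low on that array was not tested.

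Among calcium- and sodium-activated potassium channels 4 of 7 were lower, with a median of -0.18. Without mutant array 2 the median was 0.36 with 2 of 7 lower, and without wild-type array 1, 2 or 3 it was 0.044, 0.24 and 0.13. Kcnma1, the pore of the large-conductance calcium-activated channel, had levels of 10.01, 10.34 and 10.14 on the mutant arrays, against 10.22, 9.69 and 9.22 on the wild-type arrays. The difference was 0.45 (SE 0.299), while its other bright probe sets differed by -0.19 and -0.27. Its auxiliary gene Kcnmb2 differed by -0.26 (SE 0.379) and the small-conductance pore gene Kcnn1 by -0.18 (SE 0.570).

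Kcnt1, a sodium-activated pore, had the largest difference on the higher side. Its levels were 7.89, 9.32 and 9.02 on the mutant arrays, against 7.81, 8.78 and 5.78 on the wild-type arrays. The groups overlapped and wild-type array 3 lay far below the rest. The difference was 1.29 (SE 0.701; limma, unadjusted p = 0.0927), and it was one of 6 channel genes with a difference over 1 in size, 4 of them lower, where 2.50% of all genes had one. The others were Cacna1b, Scn4b, Kcnc4, Cacnb2 and the inward rectifier gene Kcnj2, which averaged 5.79 ± 1.91 in the mutant and 6.79 ± 1.18 in wild type (SD, n = 3 each). The median SE was 0.754 for channel genes and 0.506 for all genes. The count of large differences therefore does not by itself show an excess of changed genes.

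Inward rectifiers, which hold the resting potential, had 6 of 14 genes lower and a median of 0.13, but 8 of 14 lower and a median of -0.087 without wild-type array 3. Kcnj3 and Kcnj5, which encode G-protein-gated pores, were higher by 0.62 (SE 0.479) and 0.80 (SE 0.921). Kcnj8, the pore of vascular ATP-sensitive channels, differed by -0.30 (SE 0.588) and Kcnj16 by 0.38 (SE 0.380). The two-pore leak channels had 3 of 7 lower and a median of 0.05, but 5 of 7 lower without mutant array 2 (median -0.094) or without wild-type array 3 (-0.17).

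Kcnk1, a two-pore channel of many epithelia, had the smallest SE of the channel genes. Its levels were 10.93, 11.08 and 11.12 on the mutant arrays, against 11.06, 11.18 and 10.98 on the wild-type arrays, with the groups interleaved. The difference was -0.03 (SE 0.185, 95% interval -0.44 to 0.38). Kcnk5 differed by 0.61 (SE 0.833), and its level on wild-type array 3 was the floor value. Of the non-coding transcripts, Kcnq1ot1, the imprinted antisense RNA of Kcnq1, differed by 0.46 (SE 0.697) and Kcnmb4os2 by -0.65 (SE 0.801).

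**Figure D3:**
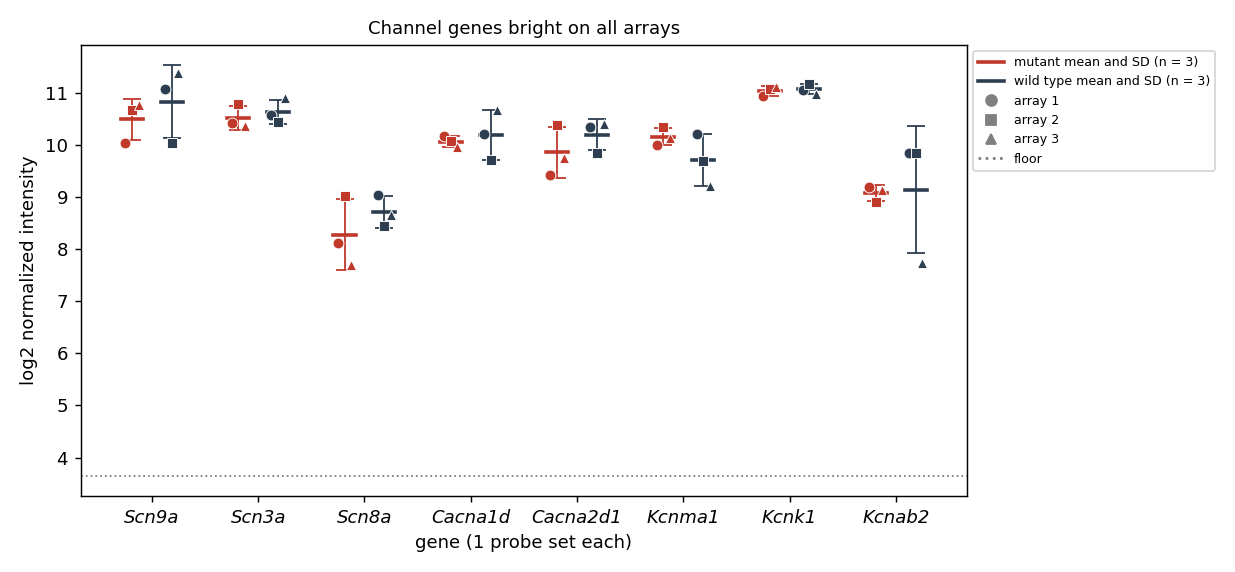
Normalized log2 level (y axis) by array of bright channel genes, with the mutant arrays left of the wild-type arrays. Bars are at the group means with SD (n = 3). Cacna1d was chosen after its values were seen, Cacna2d1 for the smallest p of its subfamily and the others for their known roles. Marker shapes stand for arrays 1, 2 and 3 and the dotted line is the floor at 3.65. The groups overlap in each gene, and Kcnk1 has the tightest points.

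The channel genes varied more within a genotype than most genes. Their median SD over arrays was 0.81 in the mutant and 0.96 in wild type, against 0.47 and 0.54 over all genes tested. The median SE of a difference was 0.754 for channel genes and 0.506 for all genes, and among channel genes the SE ran from 0.185 to 1.11. In 8 of the 81 genes tested, at least 1 array was at the floor. The channel genes were also dimmer than the genes tested as a whole. With the lowest 60% left out, 38 of the 81 stayed, against 9349 of 12703 genes. The spread was not compared at matched levels, and the part of the level in it was not tested.

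Much of that spread followed the replicate number. The arrays numbered 3 were both above the other 4 arrays in 18 of the 81 channel genes and both below them in 17 of the 81. These shares were near those of all genes, at 18.9% and 19.1%. The median size of the difference between the arrays numbered 3 and the other 4 was 1.09 in the channel genes, against a median size of 0.31 for mutant minus wild type. Over all genes these sizes were 0.52 and 0.20. The difference by number was the larger one in 62 of the 81 channel genes. Number 3 was singled out as the number that stood apart, which favours a large size for this difference.

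Cacna1a showed the pattern on the high side, with levels of 6.14, 6.14 and 8.16 on mutant arrays 1, 2 and 3, against 5.40, 5.42 and 8.85 on wild-type arrays 1, 2 and 3. The arrays numbered 3 of both genotypes were higher than the rest, by 2.73 on average. Kcnc1 and Kcnn1 had the same order, by 2.22 and 1.65. Kcne4 showed the reverse, with 8.45, 9.05 and 6.31 on the mutant arrays, against 8.37, 8.73 and 5.25 on the wild-type arrays, and Kcnj5 differed by -2.57 in the same sense. The labels do not say what arrays of one number share.

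**Figure D4:**
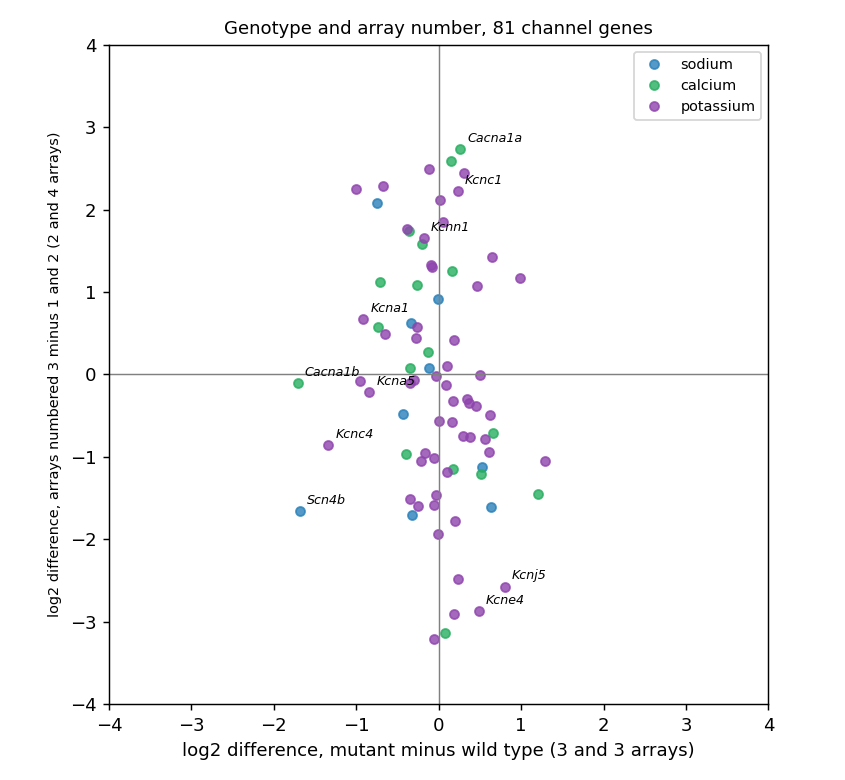
For each channel gene tested, the log2 difference of the arrays numbered 3 minus the other 4 (y axis) against the log2 difference of mutant minus wild type (x axis), coloured by sodium, calcium or potassium channel symbol. The points spread further along the y axis, from Kcnh1 at -3.21 to Cacna1a at 2.73, than along the x axis, from -1.71 to 1.29.

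Setting each mutant array against the wild-type array of its number gave another view of the lower genes. Kcnc4 differed by -1.01, -1.24 and -1.76 for numbers 1, 2 and 3, Cacna1b by -1.16, -1.86 and -2.12, and Scn4b by -1.56, -0.77 and -2.71. Kcna5 differed by -0.92, -0.30 and -1.29. In all, 8 channel genes were lower in every pair and 7 were higher in every pair, where 9.46% and 6.31% of all genes were. The median over channel genes was 0.08, 0.10 and -0.27 for numbers 1, 2 and 3, against 0.03, -0.15 and 0.01 over all genes. A limma fit blocked on that number also called 0 genes, with 157 of all genes at an unadjusted p under 0.05 in place of 76, and 4 channel genes in place of 3, the added one being Cacnb2 (1.20; limma, unadjusted p = 0.0460).

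Probe sets of the same gene did not always tell the same story. Several probe sets above the dim level were present for 20 of the channel genes tested, and in 14 of them all had the same sign. Cacna1b, Kcnc4, Kcna2 and Scn8a were among those with one sign, and Scn9a and Kcnma1 among those without. Taking the mean of all probe sets of a gene gave -1.21 for Cacna1b and -0.98 for Kcnc4, both still at an unadjusted p under 0.05 by limma (0.0210 and 0.0298).

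**Figure D5:**
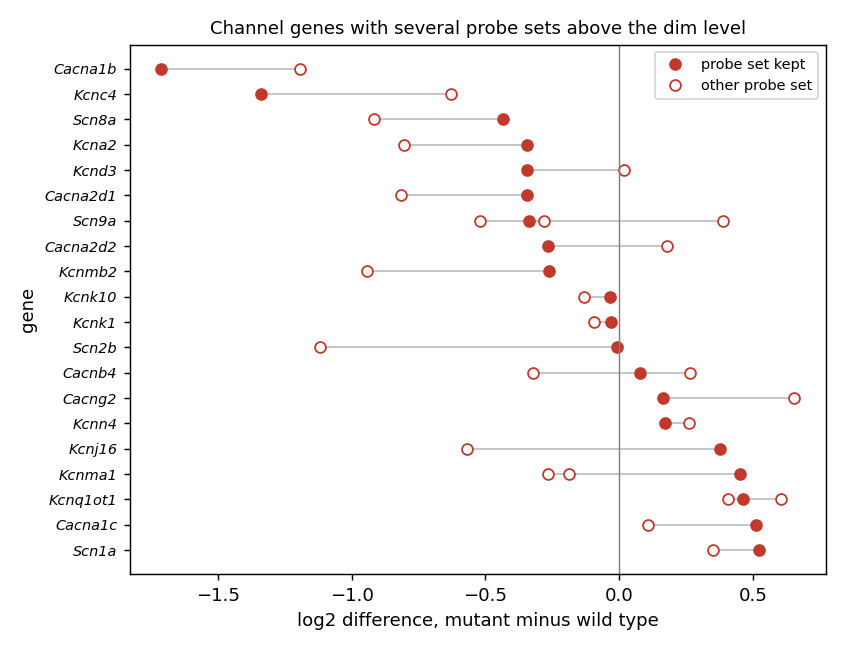
Log2 difference, mutant minus wild type (x axis), of each bright probe set of channel genes with several of them (rows), with the probe set used for the gene as a filled point and the others as open points. The probe sets of Cacna1b and Kcnc4 all lie on the lower side, while those of Scn9a and Kcnma1 lie on both sides of 0.

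The remaining 38 channel genes were too dim to test, and 37 of them had at least 1 array at the floor. The brightest of them had a mean of 5.17 over the 6 arrays and the dimmest gene tested one of 5.25. The dim genes included the nociceptor sodium pores Scn10a and Scn11a and the skeletal muscle calcium channel genes Cacna1s and Cacng1. Scn11a had levels of 4.03, 3.65 and 6.26 on the mutant arrays, against 5.08, 5.03 and 6.97 on the wild-type arrays. Cacna1f, known from photoreceptors, was the only dim gene whose groups did not overlap, with levels of 4.89, 4.60 and 4.56 on the mutant arrays, against 4.49, 3.65 and 3.71 on the wild-type arrays, all below the dim level of 5.19.

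Genes whose products work with these channels were examined as a listed group of 40, of which 35 had a probe set and 26 were tested. In the mutant, 18 were lower and 8 higher, with a median of -0.18, and limma called 0. At an unadjusted p under 0.05 there were 3, all lower, or 11.5%, against 0.598% of all genes. Groups did not overlap in 3, or 11.5%, with 2 lower and 1 higher, against 2.86% of all genes. The list was drawn up with earlier results of these data known, so neither share by itself shows an excess. Cnga2, the olfactory cyclic-nucleotide-gated channel subunit, had levels of 7.09, 6.26 and 6.52 on the mutant arrays, against 8.47, 7.37 and 8.26 on the wild-type arrays, with no overlap and a difference of -1.41 (SE 0.513; limma, unadjusted p = 0.0191, adjusted p = 1.00). Cnga2 is also one of the mature neuron markers above.

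Fgf12, an intracellular protein that binds sodium channel pores, had levels of 8.34, 8.39 and 7.76 on the mutant arrays, against 9.72, 8.73 and 8.89 on the wild-type arrays. Again the groups did not overlap, and the difference was -0.95 (SE 0.393; limma, unadjusted p = 0.0339, adjusted p = 1.00). Stx1a, a membrane fusion protein that binds N-type channels, differed by -1.32 (SE 0.554), with overlapping groups. Nalcn, the sodium leak channel, was higher on every mutant array, at 6.48, 6.41 and 6.41, against 5.77, 5.57 and 5.95 on the wild-type arrays, with a difference of 0.67 (SE 0.596; limma, unadjusted p = 0.285).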

How the data were processed

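RNA from the olfactory epithelium of 3 mutant and 3 wild-type pups was hybridized to 1 array each after column extraction and amplification with biotin labelling, per the labels' protocols. The deposited table holds linear intensities, 1 for each array and each of 45037 probe sets. The steps by which the authors summarised, background-corrected and scaled them are not given in the sources used here. Because the array quartiles differed by 0.59, 0.67 and 0.54 (lower quartile, median, upper quartile, on the log2 scale), the intensities were quantile normalized, given a lower bound (the floor) of 12.56 intensity units, their 20th percentile, and put on a log2 scale. Deposited array medians ran from 38.21 to 61.59, and the number of arrays limits the precision.

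Gene names came from the platform annotation, which gave 34945 probe sets a single symbol and left 932 with several and 9160 without one, and only the first kind was used. The brightest probe set of a gene over the 6 arrays was kept. Genes under 5.19, the level that bounds the dimmest 40% of those probe sets, were left out as dim, which left 12703 of 18193 genes. All 119 channel symbols matched RefSeq (GRCm38.p6), whose promoter windows were used. limma 3.58.1 in R 4.3.3 (lmFit, eBayes with an intensity trend, two-sided) compared mutant with wild type, and p-values were adjusted by Benjamini-Hochberg across the genes tested, with calls at under 0.05. The script was checked on simulated data with known answers. Those had independent errors and differences larger than any of the channel genes, so the check does not cover variation shared by replicate number. Klf7 probe sets came from a fit of all probe sets. Each p-value sets the difference between the groups against the spread between these arrays, which limma moderates across genes. The main fit leaves variation by replicate number in that spread.

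Arrays of the same replicate number in the labels deviated together from their group means across the genes tested, with correlations of 0.47, 0.18 and 0.56 for numbers 1, 2 and 3. All exceed 0.1, which counts as pairing here, although the labels do not say what they share. Mutant array 1 and wild-type array 2, of unlike number, correlated at 0.22, above the value for number 2. The other pairs of unlike number ran from -0.47 to 0.092. Across all genes tested, the pairing is thus clear for numbers 1 and 3 only. In the 81 channel genes alone, the correlations were 0.53, 0.49 and 0.70 for numbers 1, 2 and 3. The highest value there for arrays of unlike number was 0.30, so in the channel genes number 2 paired as well.

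The channel genes and the lists were chosen with earlier results of these data known. Named genes are Klf7, Omp, channel genes listed by textbook role, those whose groups did not overlap, and in each subfamily the gene of smallest p. Some channel genes that the role list holds were not analysed here. Kcna2, Kcna4, Kcna6, Kcnc1, Kcne3, Kcne4, Kcnh1, Kcnj2, Kcnj5, Kcnj16, Kcnmb2, Kcnn1, Kcnq1ot1, Scn1a, Scn2b, Scn7a, Cacna1d, Cacna1e, Cacna1g, the other dim genes and the partner and marker genes were chosen after their values were seen. Alternatives changed the normalization, floor, dim filter, variance model, array weights, block, probe set rule and the arrays included.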

Additional observations from a re-analysis of the deposited data

How the results depend on the processing

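The alternatives were array medians set equal, no normalization, a floor at the 10th percentile, no dim filter, the lowest 60% left out, no intensity trend, array weights, the replicate block, the mean of probe sets, each array left out in turn, and both arrays numbered 3 left out. In each of these limma called 0 channel genes. The replicate block changed no call. With it the unadjusted p (limma) was 0.00254 for Kcnc4, 0.00381 for Cacna1b and 0.00489 for Scn4b, whose SE was 0.453. All genes at an unadjusted p under 0.05 rose as well under the block, to 1.24%. The number of channel genes at an unadjusted p under 0.05 was 3 in the main setting, or 3.70% against 0.598% of all genes. With 1 array left out it was 2 to 5, or 2.47% to 6.17% against 0.559% to 1.72% of all genes. The 5 were without wild-type replicate 2, where the share of all genes was also the highest. The number whose groups did not overlap was 5, or 6.17% against 2.86% of all genes. It was 2 with array medians set equal (2.50% against 1.40%), 2 with no normalization (2.53% against 2.60%), 10 to 12 with 1 array left out (12.3% to 14.8% against 8.23% to 11.5%) and 17, 8 of them lower, without both arrays numbered 3 (21.0% against 20.5%). Fewer arrays leave less chance of overlap by construction, and the cause of the lower counts was not tested. Kcnc4 was at an unadjusted p under 0.05 in every alternative, at -1.63 to -0.95, and Cacna1b in all but the one without wild-type replicate 1, at -2.17 to -1.21. Scn4b, at -2.22 to -0.87, was not under 0.05 without mutant replicate 3, without wild-type replicate 1, with no normalization, with no dim filter or with no trend.

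Of 820 alternative values for 53 named genes, 54 had the other sign, and 28 genes kept their sign throughout. With array medians set equal the differences that turned were Kcnk1 at 0.00141 and Scn2b at 0.028; with no normalization they were Kcnk1 at 0.060 and Scn2b at 0.0867. With array weights they were Cacna1d at 0.018, Kcne4 at -0.061, Kcnn1 at 0.025, Scn2b at 0.077 and Adcy3 at -0.12. With the mean of probe sets they were Kcnab2 at 0.069, Kcnj16 at -0.10 and Adcy3 at -0.71. Without both arrays numbered 3 they were Cacna1d at 0.16, Kcnk5 at -0.32, Scn2b at 0.44, Scn3a at 0.10 and Adcy3 at -0.14. With 1 array left out in turn, sodium channel differences that turned ran from -0.44 to 1.17 for Scn1a, -1.31 to 0.27 for Scn2a, -0.47 to 0.54 for Scn2b, -0.25 to 0.017 for Scn3a, -1.40 to 0.062 for Scn3b and -0.12 to 1.18 for Scn7a. Calcium channel differences ran from -0.42 to 1.41 for Cacna1a, -0.056 to 0.88 for Cacna1c, -0.37 to 0.10 for Cacna1d and -1.13 to 0.085 for Cacna1g. Potassium channel differences ran from -0.034 to 0.92 for Kcna4, -0.77 to 0.30 for Kcnab2, -0.36 to 1.12 for Kcnc1, -0.62 to 1.30 for Kcne4, -0.023 to 0.58 for Kcnj16, -0.34 to 1.65 for Kcnj5, -0.076 to 0.025 for Kcnk1, -0.17 to 1.08 for Kcnk5, -0.58 to 0.047 for Kcnmb2, -1.07 to 0.10 for Kcnmb4os2, -0.67 to 0.43 for Kcnn1, -0.23 to 1.12 for Kcnq1ot1 and -1.84 to 0.039 for Kcnj2. Omp ran from -0.69 to 0.019. The cause of these turns was not tested. The number of arrays and the nearness of dim probe sets to the floor limit all of these values.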
